A study of Drosophila melanogaster with 24 samples.

Results

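The regions described here are the Stwl intervals found in bam GKD ovaries that had no counterpart in WT ovaries and lay away from protein-coding genes. They were chosen from the interval list of Stwl in bam GKD by position alone: off chromosomes 4 and Y, narrower than 8000 bp, sharing not even 1 bp with an interval of the Stwl WT list, and not overlapping any protein-coding gene extended by 500 bp on each side. Of 12888 intervals in the bam GKD list, 1736 met the rule. Both Stwl lists and the gene annotation made the choice, so the absence from WT, the distance to genes and the upper limit on width are descriptions and not findings.

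The study profiled Drosophila melanogaster ovaries by CUT&RUN, in which an antibody brings a micrococcal nuclease to the protein of interest and the cut fragments are sequenced. The bam GKD ovaries, which the labels assign to undifferentiated stages, and the WT ovaries, assigned to differentiated stages, were both incubated with an anti-Stwl antibody, and a WT sample was profiled with an antibody to the boundary protein BEAF. The histone samples of the series name the same genotype BamRNAi, and no label states the driver of the knockdown, the age of the flies or any further allele. Each profile came as 1 list of intervals with no score or read count, so no value has a replicate error, no test between genotypes was possible, and the comparisons hold for these lists. The remaining 21 of 24 samples, among them IgG and Stwl in stwl GKD ovaries, were not analysed here.

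Stwl (stonewall) is a nuclear DNA-binding protein of the female germline that is needed to keep germline stem cells and to form an oocyte. The bam gene encodes the factor that starts germline differentiation, so germ cells without it accumulate in an undifferentiated state, while WT ovaries hold egg chambers with polyploid nurse cells and many somatic follicle cells. Sequence between genes holds enhancers, insulators, genes of non-coding RNAs and transposon remnants. Whole ovaries were used, so fewer cells of a type and less Stwl per cell cannot be told apart.

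Intergenic Stwl was mostly unshared in bam GKD and mostly shared in WT. Outside protein-coding genes and their flanks, 1736 of 2199 bam GKD intervals under 8000 bp had no WT partner (78.9%, exact Clopper-Pearson 95% interval 77.2 to 80.6), against 115 of 794 WT intervals without a bam GKD partner (14.5%, 12.1 to 17.1). Over all 12448 bam GKD intervals of these arms and widths, 49.3% had no WT partner, and among those at genes it was 43.0% (4403 of 10249). These shares restate the rule and the longer bam GKD list, and intervals here cover counting error only. The bam GKD list held 12888 intervals and the WT list 8585. Read depth, which can set how many intervals a list holds, is unknown, and its part in these counts was not tested. With the bam GKD list reduced to its 8585 widest intervals, 933 intervals met the rule.

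The members were narrow. Their median width was 508.5 bp (95% interval of the median 481 to 538), the middle 50% ran from 288.75 to 1187 bp, and together they covered 1.59 Mb. Unshared bam GKD intervals at genes had nearly the same widths, with a median of 513 bp (496 to 532). Intergenic bam GKD intervals shared with WT were wider, with a median of 1367 bp (1222 to 1560), and a wide interval meets a WT interval more easily. The 115 intergenic WT intervals without a bam GKD partner were the narrowest class, with a median of 256 bp (240 to 337). Of the members, 206 (11.9%) reached 2000 bp, against 173 (37.4%) of the shared intergenic intervals.

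**Figure D1:**
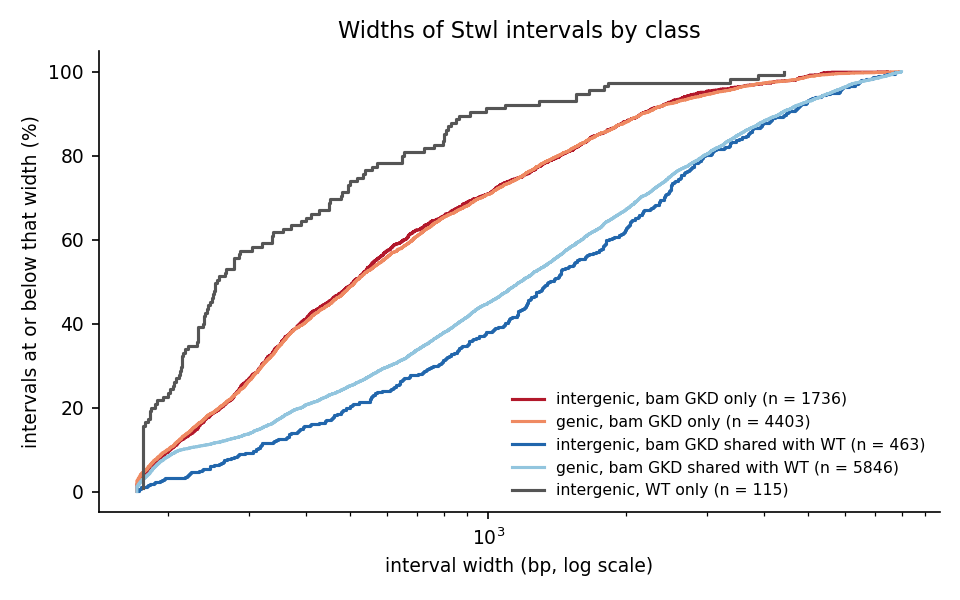
Cumulative share of Stwl intervals (%) against interval width (bp, log scale), for intergenic and genic bam GKD intervals without a WT partner, the bam GKD intervals shared with WT, and intergenic intervals of WT only. The curves of both unshared bam GKD classes lie on each other (medians 508.5 and 513 bp), left of the shared classes and right of the WT-only class (256 bp).

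The widest member spanned 7447 bp on X (14766676 to 14774122), between the protein-coding genes CG15890 and CG5334 and 2260 bp from the nearest WT interval. The next spanned 7098 bp on 2L (9000563 to 9007660), between Try29F and CG9568, and lay 459836 bp from the nearest BEAF interval. The other 8 of the 10 widest measured 5316 to 5632 bp and lay on 2L, 2R, 3R and X. All of these 10 were 2260 bp or more from WT Stwl, and 1 of them, on 2R (2596075 to 2601579, 5505 bp), overlapped BEAF. The limit on width removed a single interval that met the other terms, of 8969 bp between the adhesion gene Fas3 and the ribosomal protein gene RpS26 on 2L. At the gene limit, the nearest members lay 508, 509 and 511 bp from a gene (Gr93a, CG43813 and CG11892), and the nearest intervals left out lay 499, 497 and 491 bp from SoxN, CG45545 and nompC.

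By the rule no member overlaps a WT Stwl interval, so the distances to WT Stwl are descriptions. The median distance was 10494 bp (9725 to 11332), against 6193 bp (5928 to 6498) for unshared bam GKD intervals at genes. Of the members, 841 (48.4%) lay within 10000 bp of a WT interval, 30 (1.73%) within 1000 bp, and 142 (8.18%) more than 50000 bp away. The closest, on 3L between the paired-box genes toe and eyg, was 1 bp from a WT interval, and another between CG5290 and the ecdysone-response gene Eip75B was 4 bp away. At the other extreme, a member of 1971 bp on 3L (26707514 to 26709484) lay 334573 bp from WT Stwl and 336157 bp from the nearest protein-coding gene. The median distance to a protein-coding gene was 5752.5 bp (5480 to 6253), against 4589 bp (4155 to 5805) for intergenic intervals shared with WT. Of the members, 1551 (89.3%) had another bam GKD interval within 10000 bp, and over all members the median distance to the nearest was 2218 bp (2086 to 2354). These values were not computed for other bam GKD intervals. No neighbours in either Stwl list were closer than 1001 bp, so a run of nearby sites may stand as 1 interval.

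BEAF binds boundary elements, many of them beside housekeeping promoters. The rule did not use the BEAF list, but it left out gene ends. Of the 1736 members, 20 overlapped a BEAF interval (1.15%, 0.705 to 1.77), against 16.8% of all bam GKD intervals under 8000 bp. This difference is therefore in part set by the rule. BEAF intervals covered 0.316% of the sequence between the extended protein-coding genes. With the wider 50% of bam GKD intervals alone, the members' share was 2.19%. Unshared intervals at genes overlapped BEAF in 2.36% (1.93 to 2.85), shared intergenic intervals in 9.94% (7.37 to 13.0) and shared intervals at genes in 32.9% (31.7 to 34.1). Width moves with these classes, so the share was also taken by width. Below 300 bp it was 0.870% in members (4 of 460) and 7.14% in shared intergenic intervals (3 of 42), and from 1200 to 2400 bp it was 2.46% (7 of 285) and 15.0% (18 of 120). From 2400 bp upwards it was 4.23% (1.57 to 8.97) in members and 8.51% (4.48 to 14.4) in shared intergenic intervals, with overlapping intervals. BEAF was profiled in WT ovaries, the genotype from which the members are absent by the rule, and BEAF in bam GKD was not analysed here. The median distance to BEAF was 29600 bp (27955 to 31933) for members and 17982 bp (15173 to 22338) for shared intergenic intervals.

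**Figure D2:**
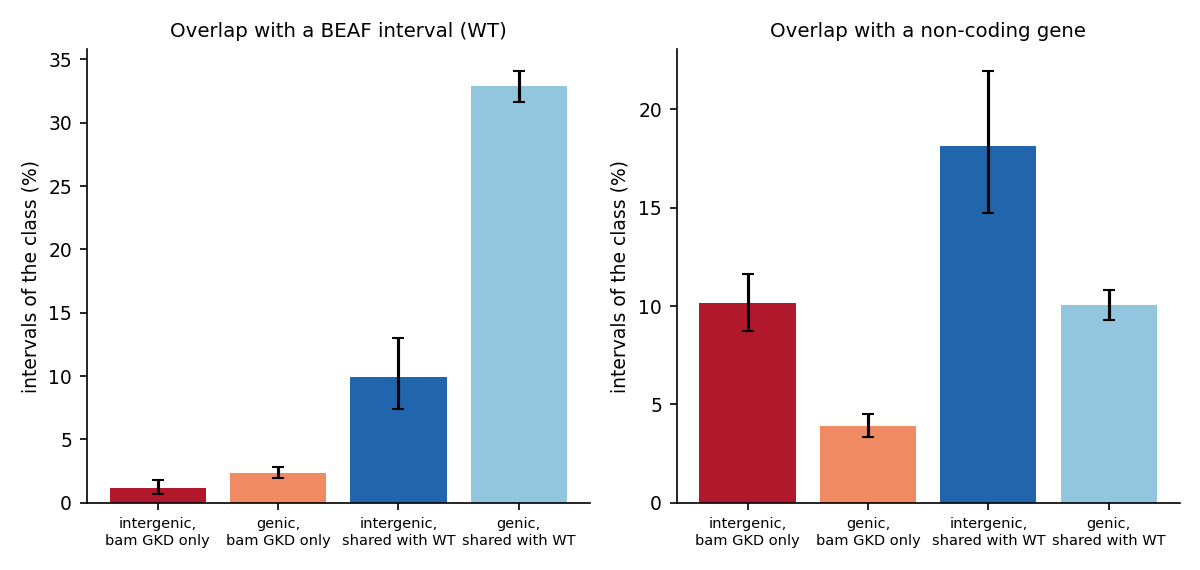
Share of bam GKD intervals (%) that overlap a BEAF interval (left) or a non-coding gene (right) in 4 classes, with exact 95% intervals as error bars. Members stand lowest for BEAF, at 1.15%, and between both neighbouring classes for non-coding genes, at 10.1%.

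The 5 widest members with BEAF lay on 2R and 3L. A pair on 2R between MFS17 and CG41378 measured 5505 bp (2596075 to 2601579) and 4776 bp (2602663 to 2607438). One of 4253 bp lay on 3L (10752101 to 10756353) between NijA and CG43245, and one of 3010 bp on 3L (27942375 to 27945384) between eIF4B, a translation initiation factor gene, and l(3)80Fj. One of 2854 bp lay on 2R (6491488 to 6494341) between Pld and jing, which encodes a zinc finger transcription factor. The other 15 members with BEAF measured between 177 and 2417 bp.

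Non-coding genes lay under a moderate share of the members, nearly all of them genes of long non-coding RNAs. Of the members, 176 overlapped a non-coding gene (10.1%, 8.76 to 11.7), against 8.18% of all bam GKD intervals under 8000 bp. Shared intergenic intervals did so in 18.1% (14.7 to 22.0) and unshared intervals at genes in 3.88% (3.33 to 4.50). A lncRNA gene lay under 161 members (9.27%, 7.95 to 10.7) and under 12.5% (9.65 to 15.9) of shared intergenic intervals, with a share of 4.97% over all bam GKD intervals. A pseudogene lay under 11 members (0.634%, against 0.538% of all bam GKD intervals), an antisense RNA gene under 2, a tRNA gene under 2 (0.115%) and a miRNA gene under 1. The share with a tRNA gene was 3.24% (1.82 to 5.29) among shared intergenic intervals and 0.675% over all bam GKD intervals.

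Counted from the genes, 1483 non-coding genes lay clear of the extended protein-coding genes, and 105 of them overlapped a member (7.08%). It was 3.37% with the wider 50% of bam GKD intervals alone and 4.86% with the 8585 widest. For lncRNA genes it was 92 of 1042 (8.83%, 7.18 to 10.7), and 97 (9.31%, 7.61 to 11.2) overlapped a WT Stwl interval, with 8 genes in both counts. For tRNA genes it was 2 of 105 (exact 95% interval 0.232 to 6.71%), while 59 (56.2%, 46.2 to 65.9) overlapped a WT interval and 31 a shared bam GKD interval. For snoRNA genes, whose products guide RNA modification, no member overlapped any of the 39, where 3 genes would make 7.69%. The exact 95% upper bound was 9.03%, and 34 of these genes (87.2%, 72.6 to 95.7) overlapped a WT interval. The tRNA and snoRNA genes without a member had median lengths of 73 and 79 bp. By the rule members share no base with a WT interval, so a gene this short under WT Stwl can hardly meet one. The low tRNA and snoRNA counts are therefore in part set by the rule and are descriptions. The lncRNA genes of 3000 bp or more overlapped members in 24 of 67 (35.8%), and those below 500 bp in 21 of 331 (6.34%). Near-identical tRNA copies may share reads, and no source used here says how such reads were placed.

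The 5 longest overlaps were all with lncRNA genes, of 17608 to 158841 bp. The gene lncRNA:flam (X, 21631891 to 21790731), the flamenco locus whose transcripts are cut into transposon-silencing piRNAs in follicle cells, held 7 members over 6296 bp, or 3.96% of its length. These 7 measured 258 to 1949 bp, and the widest ran from 21772773 to 21774721. A WT Stwl interval and a BEAF interval also lay in lncRNA:flam, whose transposon remnants are repeated elsewhere in the genome. The gene lncRNA:CR44833 (X, 4956646 to 5063868) held 15 members over 10713 bp, lncRNA:CR46061 on 3R held 5 over 5771 bp, lncRNA:CR44779 on X held 3 over 5704 bp and lncRNA:CR44997 on X held 7 over 5463 bp. Of the 130 non-coding genes met by a member, 20 lay wholly inside members, and the median share of a gene covered was 13.6%.

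Among shorter genes, mir-1 (2L, 20487441 to 20487531), which encodes the muscle microRNA miR-1, shared 34 of its 91 bp with a member of 5362 bp (20487498 to 20492859) that also overlapped lncRNA:CR45359, lncRNA:CR45360 and lncRNA:CR45361. The genes tRNA:Ser-AGA-3-2 on X and tRNA:Met-CAT-1-5 on 3R were covered over 100% and 82.2% of their length, by members of 3815 and 685 bp. The antisense RNA genes were asRNA:CR44894 and asRNA:CR45520, both on X. Of the pseudogenes, CR41454 on 3L shared the most, 1549 bp, followed by CR40190 on 2R (1112 bp), CR46461 on 3L (551 bp), CR42653 on 2R (414 bp) and CR43216 on X (385 bp). The bithorax transcript lncRNA:iab8 on 3R, named here after its value was seen, held 1 member of 197 bp.

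The members lay on all 5 large arms and were most numerous on 3L. The arm 3L held 541 (31.2%, 29.0 to 33.4), although it has 25.5% of the sequence between extended protein-coding genes, called gaps from here on. The arm 2L held 385 (22.2%, 20.2 to 24.2) with 19.0% of the gap sequence, and X held 268 (15.4%, 13.8 to 17.2) with 15.3%. The arm 3R held 298 (17.2%, 15.4 to 19.0) with 20.4%, and 2R held 244 (14.1%, 12.5 to 15.8) with 19.9%. Per Mb of gap this came to 58.0 members on 3L (exact Poisson 95% interval 53.2 to 63.1), 55.5 on 2L, 48.2 on X, 39.9 on 3R and 33.7 on 2R (29.6 to 38.2). Shared intergenic intervals ranged between 9.90 per Mb on 3R and 14.4 on 3L.

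Along the arms the density was highest in the middle. With each arm cut into 5 equal segments from the centromere outwards and the arms added up, gaps held 34.1 members per Mb in segment 1 (30.8 to 37.6), 56.7 in segment 2 (51.2 to 62.7), 72.2 in segment 3 (65.6 to 79.4), 57.3 in segment 4 (51.2 to 63.9) and 29.9 in segment 5 (25.7 to 34.6). Segment 3 of 3L had 104.776 members per Mb. On 2R the 5 segments lay between 28.4 and 37.8 per Mb, and on 2L segment 2 (76.8 per Mb) exceeded segment 3 (71.5). A clear peak in the middle was therefore not seen on every arm. The 3 fullest stretches of 1 Mb were all on 3L, from 15 to 16 Mb (62 members), 18 to 19 Mb (59) and 10 to 11 Mb (54), and held 10.1% of all members. The median over 136 stretches was 10 members, and 4 stretches had none, among them 1 to 2 Mb of 3R, which has no gap sequence. These counts are not divided by gap sequence. Per Mb of gap the 3 fullest held 149.059, 122.117 and 110.221 members, while 13 to 14 Mb of 2L held 139.606 with 23 members.

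Of 3542 gaps, 811 held a member (22.9%), and 453 of these held exactly 1. With the wider 50% of bam GKD intervals 349 gaps held a member, and with the 8585 widest 509. All gaps together measured 36.2 Mb and held 1720 members, 47.5 per Mb (45.3 to 49.8), and the remaining 16 members lay beyond the first or last gene of an arm. Gaps of 10 to 30 kb held 56.0 members per Mb (51.7 to 60.5), and those of 30 to 100 kb held 51.7 (47.5 to 56.1). In the 33 gaps of 100 kb or more the density was 28.5 per Mb (24.5 to 32.9). The shared intergenic intervals ran at 13.8 per Mb (11.7 to 16.1) in gaps of 30 to 100 kb and 10.7 (8.31 to 13.5) in the longest, values whose intervals overlap. All WT intervals ran at 19.8 (17.3 to 22.6) and 16.7 (13.7 to 20.2), which also overlap. Many of the 33 longest gaps lie towards the centromere end of an arm, so gap length and position along the arm were not told apart. In gaps under 1 kb few intervals can lie without touching a gene flank, and 4 members did so. All bam GKD intervals together covered 12.4% of the gap sequence and all WT intervals 3.38%.

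**Figure D3:**
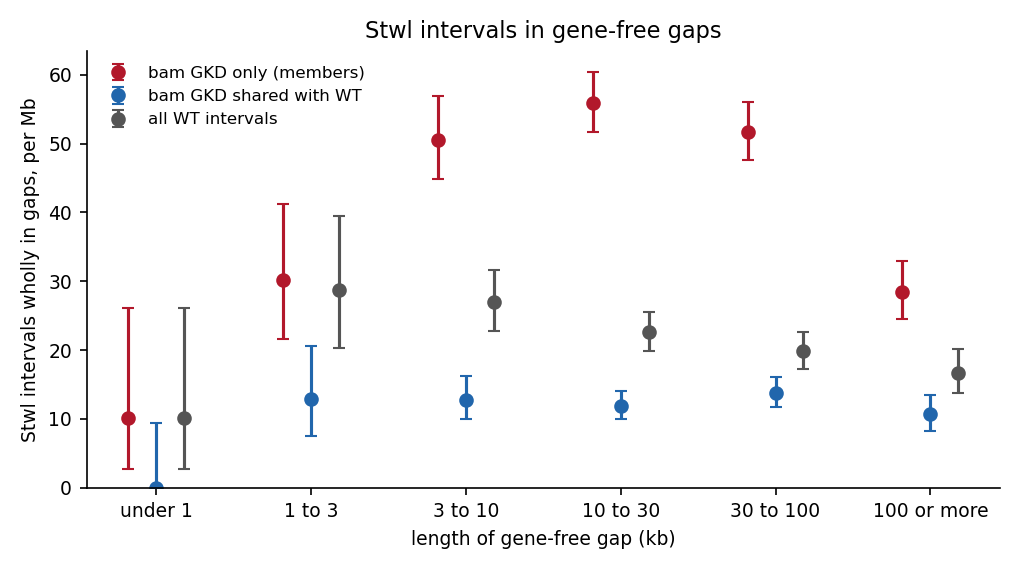
Stwl intervals lying wholly in gaps, per Mb of gap, by length of the gap (kb), for members, bam GKD intervals shared with WT, and all WT intervals, with exact Poisson 95% intervals. Members run between 50.6 and 56.0 per Mb in gaps of 3 to 100 kb and at 28.5 in the longest gaps, while shared intervals stay between 10.7 and 13.8 in gaps of 1 kb or more.

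Runs of neighbouring members are given as a description. No such share was computed for other intervals, nor the share that a density of 47.5 members per Mb of gap would give by itself. Joining neighbours no more than 5000 bp apart gave 350 runs of at least 2 members, which held 939 of the 1736 (54.1%), and the longest run had 9. With 10000 bp, 384 runs held 1177 members (67.8%). Because the lists hold no neighbours closer than 1001 bp, no closer spacing could be seen. Of the 811 gaps that held a member, 499 (61.5%) had no base under a WT interval, against 2433 (68.7%) of all 3542 gaps, and 874 members (50.3%) lay in those 499.

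The 10 gaps with most members held 144 members, 8.29% of the total, in 2.13 Mb. The gap between DIP1 and CG40813 on X (21630649 to 22142557, 511.909 kb), which contains lncRNA:flam, held 19 members and 2 WT intervals. The gap between the odorant receptor gene Or67d and CG12362 on 3L (10275125 to 10412317, 137.193 kb) also held 19, but there 13 WT intervals lay among them, and bam GKD intervals of any class covered 47.0% of the gap against 11.0% for WT. The gap between CG42598 and CG40228 on 3L (26371857 to 27081590) held 18 in 709.734 kb, the sparsest of the 10 at 25.4 per Mb. The gap between CG17684 and MFS17 on 2R (2262616 to 2494241) held 17, and bam GKD intervals covered 39.7% of it against 1.43% for WT.

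Among these 10 gaps, the highest densities were in a neighbouring pair on 3L. The gap from Toll-6, a gene of a Toll-family receptor, to CG33259 (15344816 to 15407331) and the next one from CG33259 to cocoon (15408768 to 15471696) each held 13 members, at 207.947 and 206.582 per Mb, with 2 WT intervals each. The gap from comm, whose product controls axon crossing of the midline, to CG6244 (15728931 to 15807821) held 12, at 152.109 per Mb. On X, the gap from Cda4 to CG12446 held 12 members beside 1 WT interval. The gap from Sdr to CG14861 on 3R held 11, and the gap from shep, an RNA-binding protein gene, to CG46456 on 3L held 10, and neither contained a whole WT interval. A further gap on 3L, named here after its value was seen, lies between the cell death genes grim and rpr (18304918 to 18397034) and held 9 members and 1 WT interval.

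**Figure D4:**
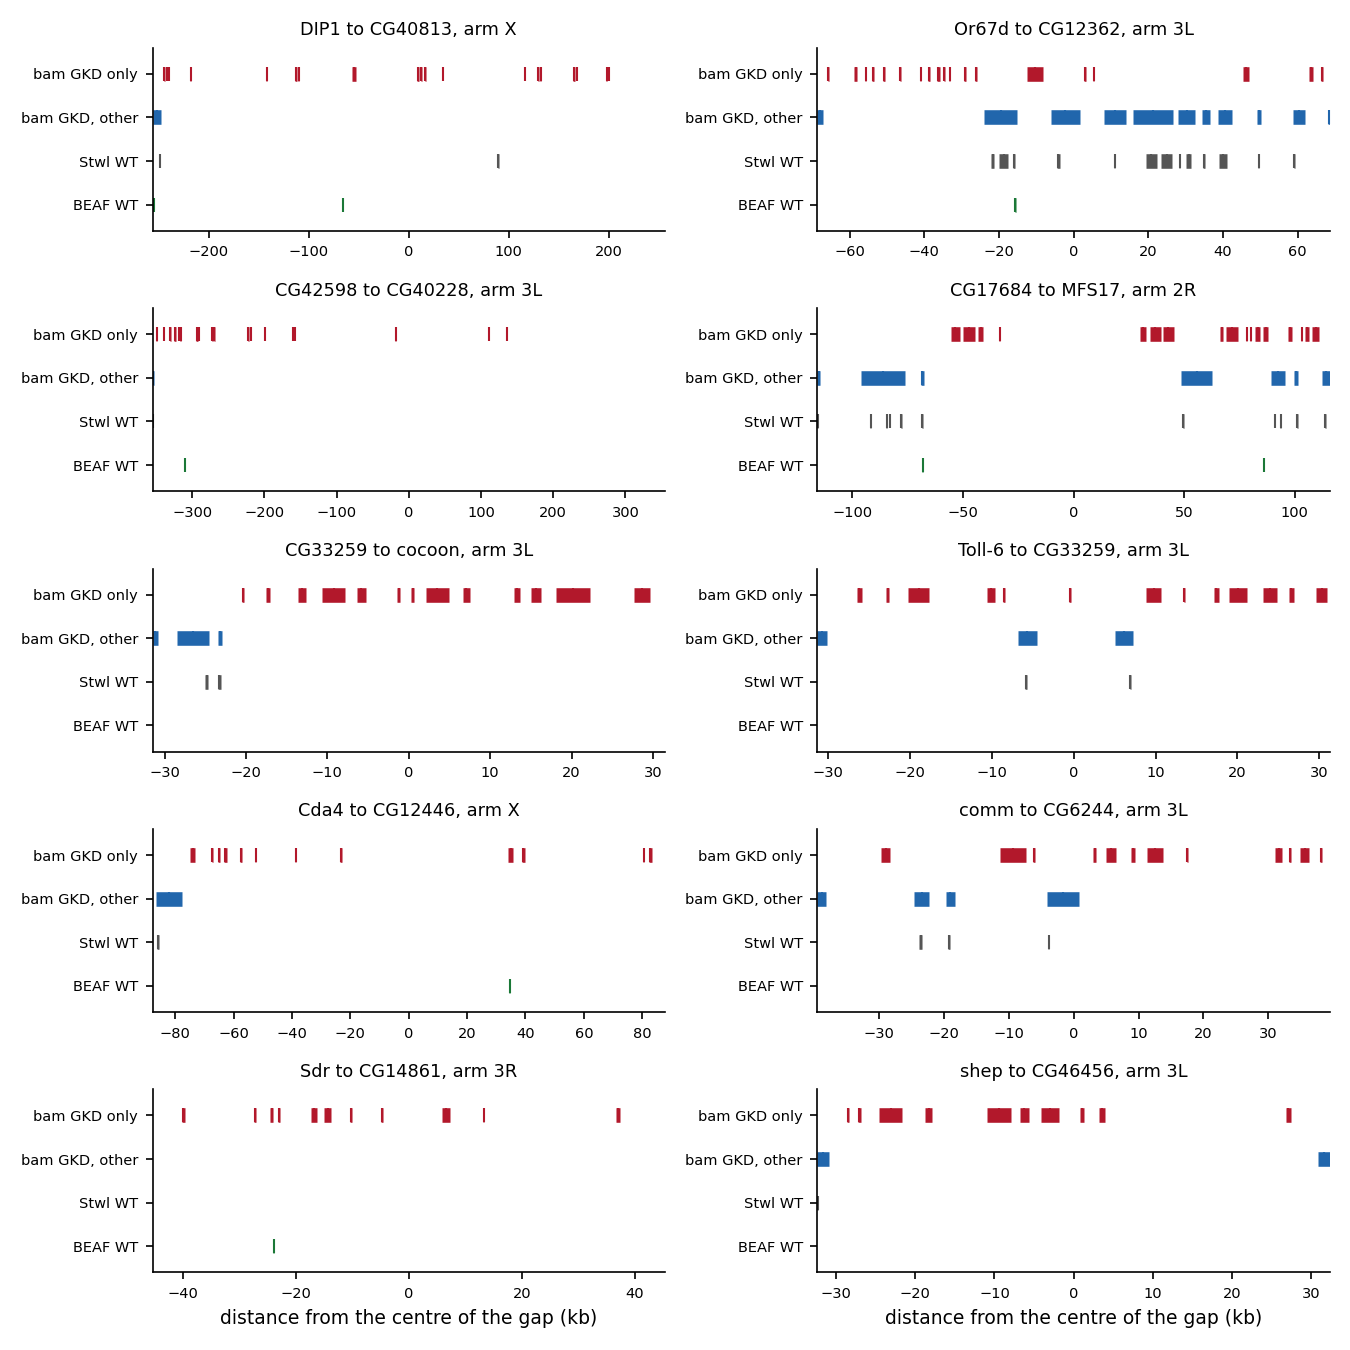
Positions of intervals, as distance from the centre of the gap (kb), in the 10 gaps that hold most members, with rows for members, other bam GKD intervals, Stwl WT and BEAF WT. The gap from Or67d to CG12362 has 13 WT intervals among 19 members, while those from Sdr to CG14861 and from shep to CG46456 have no whole WT interval beside 11 and 10 members.

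Within such gaps the members varied in width and in distance from WT Stwl. In the gap holding lncRNA:flam the 19 members had a median of 1040 bp. The first 3 lay near the DIP1 side (21641678 to 21642582, 21644579 to 21644836 and 21646740 to 21647446), 3695 to 8757 bp from WT Stwl, and the widest, of 3385 bp (21830222 to 21833606), lay beyond lncRNA:flam and 142384 bp from WT Stwl. Most members lay in the stretch between its WT intervals. In the gap from Toll-6 to CG33259 the 13 members measured 186 to 2541 bp with a median of 647 bp, and none was further than 14338 bp from a WT interval. The 8 members before ovo, all inside lncRNA:CR44833, measured 182 to 3843 bp. Of these, 5 followed each other between 5032048 and 5043236, 2217 to 13192 bp from WT Stwl, and 3 lay between 5000993 and 5008175. The 9 members between grim and rpr measured 226 to 2659 bp, with 7 of them between 18362977 and 18393423 on the rpr side. All 4 of these gaps held narrow and wide members side by side.

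The longest gaps were not uniformly filled. Of the 33 gaps of 100 kb or more, 5 held no member, among them those from Marf1 to RpL5 on 2L (162.482 kb) and from DIP-lambda to CG46302 on 2R (147.965 kb). The gap from DIP-lambda to CG46302 had no base under an interval of either Stwl list. How reads from repeats were placed is not stated, and its part in these counts was not tested. The gap from nvd to mRpS5 on 3L held no member but 3 WT-only intervals. The gap from Dbp80 to eIF4B on 3L held 2 members in 419.509 kb. More WT-only intervals than members lay in 40 gaps.

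Protein-coding genes beside these gaps were described by 10 lists. A gene borders a gap when its extended end is the gap's edge, and 1408 of 13842 protein-coding genes (10.2%) bordered a gap with a member. Only 5257 of the 13842 bordered any gap, against 76 of the 83 developmental transcription factor genes. The shares below therefore also follow how many genes of a list border a gap. Of the developmental transcription factor genes, 41 of 83 did (49.4%), of the Hox genes 4 of 8, of the segmentation genes 11 of 25 (44.0%) and of the axon guidance and adhesion genes 22 of 50 (44.0%). With the wider 50% of bam GKD intervals the share was 26.5% for developmental transcription factor genes and 4.55% for all protein-coding genes, and with the 8585 widest it was 30.1% and 6.57%. Such genes border long gaps, with a median of 10.3 kb for the developmental transcription factors and 11.2 kb for the guidance genes, against 3.30 kb for all genes. Per Mb of bordering gap the interval of each of these lists included the value of all genes, with 44.8 members (36.3 to 54.6) beside developmental transcription factors, 60.7 (47.0 to 77.1) beside guidance genes and 34.0 (21.3 to 51.5) beside segmentation genes, against 47.5 for all gaps.

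Receptor genes of the senses and of neurons gave similar densities. Of the odorant, gustatory and ionotropic receptor genes, 28 of 179 (15.6%) bordered a gap with a member, at 58.6 per Mb (46.3 to 73.3). Of the neurotransmitter receptor and ion channel genes 13 of 46 (28.3%) did, at 53.8 per Mb (35.1 to 78.8), and of the Cpr cuticle protein genes 10 of 70 (14.3%), at 49.3 per Mb (23.6 to 90.6). Of the ribosomal protein genes 7 of 91 (7.69%) did, at 30.8 per Mb (18.2 to 48.6), and of the germline genes 2 of 25, at 48.2 per Mb (26.3 to 80.8). Among genes that border any gap, the counts were 28 of 93 sensory receptor genes, 13 of 36 neurotransmitter receptor and channel genes and 10 of 56 Cpr genes. They were 7 of 25 ribosomal protein genes and 2 of 6 germline genes, against 1408 of 5257 protein-coding genes. None of the 21 nucleoporin genes bordered any gap, since their extended ends run into neighbouring genes.

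**Figure D5:**
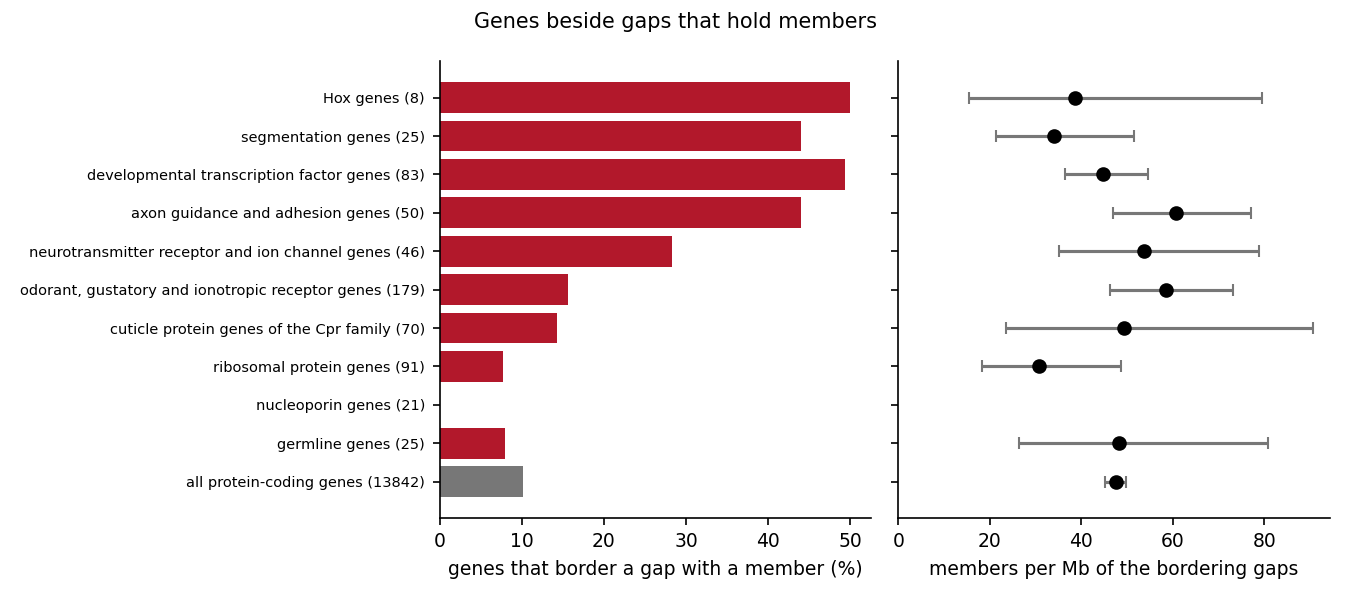
For 10 gene lists and all protein-coding genes (number of genes in brackets), the share of genes that border a gap with a member (left, %) and the members per Mb of the bordering gaps (right, with exact Poisson 95% intervals). The shares, taken over all genes of a list whether or not they border a gap, run between 0 and 50%. The interval of every list with a density includes 47.5 per Mb, the value for all genes.

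Single genes of the lists showed the range. Among Hox genes, which set segment identity, Dfd on 3R (6791836 to 6802428) bordered gaps with 4 members, Antp 2, and Abd-B and Scr 1 each, with the member beside Scr also counted for Dfd. WT intervals in these gaps numbered 2 each for Dfd and Scr, 1 for Abd-B and 0 for Antp. Among segmentation genes, the pair-rule gene hry (3L, 8675759 to 8679253) had 5 members and the gap gene hb (3R, 8690980 to 8697822) had 3, while hkb and kni had 2 each. WT intervals numbered 4 for hry, 0 for hb, 2 for hkb and 1 for kni. Of the developmental transcription factor genes, disco on X had 8 members in 108.111 kb and 3 WT intervals. The T-box gene mid on 2L had 7 members in 93.171 kb and 2 WT intervals. The Sox gene D and the LIM-homeodomain gene Awh, both on 3L, had 6 and 5 members and no WT interval.

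Of the guidance and adhesion genes, Toll-6 had 15 members and 2 WT intervals, and caps, a leucine-rich repeat receptor gene, had 9 and 3. The immunoglobulin receptor gene Dscam3 had 7 members and no WT interval, and Fas3 had 4 of each. The glutamate receptor gene GluRIB on 3L had 9 members in 44.809 kb and no WT interval. The serotonin receptor gene 5-HT2A had 3 members and 3 WT intervals, and GluRIIB and Octbeta2R had 2 members each and no WT interval. Or67d, the receptor gene for a male pheromone, had 21 members over both of its gaps, Or67c had 7, Ir64a had 6 and Gr92a had 5. WT intervals numbered 13 for Or67d, 1 for Gr92a and 0 for Or67c and Ir64a. The Cpr genes had at most 2 each (Cpr65Eb, Cpr65Ec and Cpr92F, with 1 at Cpr12A), and Cpr65Eb and Cpr65Ec border the same gap and share theirs. The ribosomal protein genes RpL10 and RpL15 had 4 members and 4 WT intervals each. RpL13 had 3 members and no WT interval, and RpS26 had 3 of each. RpS26 and Fas3 border the same gap, so members in it count for both genes. The germline genes were ovo (X, 5048273 to 5070929), a transcription factor gene of the female germline, with 8 members and 2 WT intervals in the single gap it borders, and AGO3, which acts in the piRNA pathway, with 6 members and 7 WT intervals in 232.038 kb.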

How the data were processed

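Per the file headers, the deposited lists give only the chromosome, start and end of each interval, on dm6, with no score or count. Among the tools in the submitters' processing notes are the aligner Bowtie2 2.2.8 and the peak caller MACS2 2.1.0. Settings, control library, threshold and any pooling of duplicates were not stated in what was used here, and read depth is unknown. Genes came from a RefSeq table of Release 6, the dm6 assembly (17872 genes, 13842 of them protein-coding on 2L, 2R, 3L, 3R and X). Coordinates are 1-based. Strand, transcripts and sequence were not used here, so promoters, base composition and the planned motifs were not examined.

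Overlap meant at least 1 bp. Gaps were the stretches between protein-coding genes extended by 500 bp. Shares carry exact Clopper-Pearson intervals, densities exact Poisson intervals and medians order-statistic intervals, all at 95%, for counting error only. No test was run, because each genotype had 1 list and intervals are not replicates. The interval functions were checked on simulated data. Python 3.11.15 with pandas 2.3.3, numpy 2.4.6 and scipy 1.17.1 was used. Members and lists were chosen with earlier results of these data known. Named were the widest members, those at each limit, the 5 widest with BEAF, the 10 fullest gaps, up to 5 non-coding genes per type and up to 4 genes per list. Older symbols were matched through synonyms (h as hry), and list genes on chromosome 4 were left out. The germline gene nos and the segmentation entry hairy found no match and were also left out. Groups came from sample titles.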

Additional observations from a re-analysis of the deposited data

How the results depend on the processing

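Of 122 values recomputed under 11 alternatives, 99 stayed within the 95% interval, or for counts within 1.5 times, of the reported value, and 23 moved. Some of the 99 could hardly move. All members already lie on the large arms, so keeping these arms alone changed no value, and lifting the width limit gave 1737 members. Keeping the wider 50% of bam GKD intervals (804 bp or more) gave 594 members with a median of 1601.5 bp, 16.3 per Mb, 18.2% on X and 2.19% with BEAF. Keeping the widest 8585, an alternative chosen after seeing the data, gave 933 members, a median of 1068 bp and 25.6 per Mb. Requiring an overlap of 50% of the shorter feature put the share with a non-coding gene at 7.55%. Of the other results, the share of intergenic bam GKD intervals without a WT partner was 65.1% in the wider 50% and 71.1% in the widest 8585, and lncRNA:flam kept 3 members in the wider 50%. The wider 50% also lowered the gaps with a member to 349, the non-coding genes met to 3.37%, and the genes beside such a gap to 26.5% of developmental transcription factor genes and 4.55% of all protein-coding genes. With the widest 8585 these were 509 gaps, 4.86%, 30.1% and 6.57%. Other gene extensions moved no result but the share of all protein-coding genes beside a gap with a member, to 11.1% at 250 bp, 9.13% at 1000 bp and 7.54% at 2000 bp. No paired analysis was possible because each group has 1 list and the labels carry no replicate numbers. Narrow intervals carry most of the count, and no score or read depth was held to rank them.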

Other observations

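Outside the rule, 31 of the 12888 bam GKD intervals and 9 of the 8585 WT intervals were placed on chromosome Y. Ovaries come from females, which normally carry no Y, and how reads from repeats were placed is not stated. These counts are therefore not read as Stwl on Y, and their origin was not tested.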
